A study of Mus musculus with 2 samples.

Results

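The genes described here are 40 genes of DNA replication and mitosis, taken by gene symbol from a given list out of the 16614 genes that both libraries list. All 40 were found. By their role, 15 were grouped as replication genes, 21 as mitosis genes and 4 as regulators of the other two groups. The 2 libraries hold poly-A RNA from bone marrow macrophages of C57BL/6 mice, grown with M-CSF for 3 days and then treated with RANKL, the cytokine that turns macrophages into osteoclasts, for 2 days. One library is from wild-type (WT) cells and the other from cells of Foxo3 knockout (KO) mice, which lack the forkhead transcription factor FoxO3. The sources used here do not say how the allele was made, in which cells it was lost or how many mice were pooled. With 1 library per genotype there is no replicate error, so each difference is one between these libraries and none was tested between the genotypes.

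A cell that divides first copies its DNA and then separates the copies. In the G1 phase the Mcm2-7 helicase is loaded onto replication origins, and in S phase it is activated by kinases, among them Cdk2 with cyclin E, while enzymes such as ribonucleotide reductase supply the nucleotides. Cyclin B with Cdk1 then drives mitosis, kinesins and Aurora and Polo kinases build the spindle, and the anaphase-promoting complex ends it by marking cyclins for destruction. E2F factors are known to switch on replication genes, and the MuvB complex with B-Myb and FoxM1 mitotic genes, through CHR elements (cell cycle genes homology regions) in their promoters. Macrophages divide in response to M-CSF, and precursors leave the cell cycle as they fuse into osteoclasts, which are cells with many nuclei. In bulk RNA, fewer dividing cells and less RNA per dividing cell cannot be told apart.

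Values are FPKM, fragment numbers divided by transcript length and library size. The log2 ratio is log2(KO + 1) minus log2(WT + 1), so a value below 0 is lower in the KO library, and the added 1 FPKM understates differences of low genes. A gene counted as measured at 1 FPKM or more in at least 1 library, as 10003 genes were. Foxo3, the gene that checks the labels, stood at 10.3 FPKM (WT) and 0.548 FPKM (KO). From the smallest steps in the values of low genes, the depth was estimated at about 25200000 reads for WT and 34800000 reads for KO. Read numbers and counting errors given below rest on that estimate and on the longest annotated transcript of each gene, and cover counting error alone. Of 10 macrophage markers, 9 had a log2 ratio below 0 (median -0.23), all but Itgam, against 42.4% of all measured genes. Of these 9, Csf1r (-0.0051) and Cd68 (-0.025) lay close to 0. The levels of the 10 markers summed to 10263 FPKM (WT) and 8335 FPKM (KO). Of 11 osteoclast markers, 8 had a ratio above 0 (median 0.16), all but Itgb3, Calcr and Dcstamp, against 57.6% of all measured genes. The levels of the 11 markers summed to 20698 FPKM (WT) and 23281 FPKM (KO). Both cultures thus held macrophage transcripts, with Csf1r, the M-CSF receptor gene, at 697.1 FPKM (WT) and 694.6 FPKM (KO), and osteoclast transcripts, with the protease gene Ctsk at 6106 FPKM (WT) and 6862 FPKM (KO). Other dividing marrow cells could also carry the genes described here. Markers of myeloid progenitors and granulocyte precursors reached 1 FPKM for 5 of 14 genes in either library, and their levels summed to 37.4 FPKM (WT) and 35.0 FPKM (KO), of which Ngp, a granule protein of later neutrophil precursors, made up 24.5 and 22.0 FPKM. The granule enzyme gene Mpo stood at 1.14 and 1.001 FPKM, Elane at 0.897 and 0.975 FPKM and the progenitor receptor gene Kit at 0.409 and 0.298 FPKM. Other genes of this list, named after their values were seen, went both ways. Prtn3 (0.978 and 0.376 FPKM) and Ctsg (0.235 and 0.056 FPKM) were lower in the KO library, and Camp (3.44 and 4.45 FPKM) and Flt3 (0.092 and 0.161 FPKM) were higher. The 9 stromal markers summed to 8.64 FPKM (WT) and 8.002 FPKM (KO), with Col1a1 at 3.35 and 3.24 FPKM and Lum at 0 in both libraries. None of the 7 erythroid and megakaryocyte markers found and none of the 7 lymphoid markers reached 1 FPKM, and Hbb-b1, Cd3e and Nkg7 were among those at 0 in both libraries. What part such cells or the shift in macrophage markers had in the values below was not tested.

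The promoters of the 2 gene groups are shown first because the results contrast these groups, and E2F and CHR letters were spread unevenly between them. Promoter windows of RefSeq on GRCm38.p6, from 250 bases before to 50 bases after an annotated start, matched 13 replication and 17 mitosis genes and 3 regulators. They were searched on both strands for E2F letters (TTTCCCGC, TTTGGCGC, TTTCGCGC or GGCGGGAA, which can overlap one another), for CHR letters (TTTGAA or TTCGAA, the second of which is its own reverse complement) and for the CCAAT box, to which the factor NF-Y binds. E2F letters were in 6 of 13 replication genes and 1 of 17 mitosis genes, against 1081 of 27025 genes with a window (4%). CHR letters were in 3 of 13 replication genes and 13 of 17 mitosis genes, against 21.7% of all genes. A CCAAT box was in 9 of 13 replication genes and 15 of 17 mitosis genes, against 41.1% of all genes. The bases from 180 before to 30 after the start are printed for the 5 helicase genes with a window and for 4 mitosis genes, with E2F and CHR letters in capitals.
Mcm3: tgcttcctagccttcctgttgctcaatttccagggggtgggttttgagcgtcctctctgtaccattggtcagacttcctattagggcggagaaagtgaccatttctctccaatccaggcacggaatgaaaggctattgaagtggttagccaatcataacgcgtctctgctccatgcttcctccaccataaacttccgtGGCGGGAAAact
Mcm5: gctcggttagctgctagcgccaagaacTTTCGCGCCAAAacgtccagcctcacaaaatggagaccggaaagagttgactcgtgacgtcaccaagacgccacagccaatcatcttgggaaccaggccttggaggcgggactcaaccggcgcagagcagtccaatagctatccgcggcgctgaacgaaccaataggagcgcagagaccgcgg
Mcm6: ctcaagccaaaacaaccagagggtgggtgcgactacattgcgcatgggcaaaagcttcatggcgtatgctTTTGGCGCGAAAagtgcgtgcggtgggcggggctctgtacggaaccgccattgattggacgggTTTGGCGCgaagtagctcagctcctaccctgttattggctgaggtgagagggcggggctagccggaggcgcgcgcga
Mcm7: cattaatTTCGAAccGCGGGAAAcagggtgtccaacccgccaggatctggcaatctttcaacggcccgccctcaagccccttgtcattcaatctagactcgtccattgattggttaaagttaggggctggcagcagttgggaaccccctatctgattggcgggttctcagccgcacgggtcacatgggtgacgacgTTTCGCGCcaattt
Mcm2: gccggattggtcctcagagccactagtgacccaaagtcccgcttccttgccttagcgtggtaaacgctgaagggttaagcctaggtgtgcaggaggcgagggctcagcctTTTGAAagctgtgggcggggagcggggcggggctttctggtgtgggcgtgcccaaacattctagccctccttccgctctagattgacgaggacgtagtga
Cdk1: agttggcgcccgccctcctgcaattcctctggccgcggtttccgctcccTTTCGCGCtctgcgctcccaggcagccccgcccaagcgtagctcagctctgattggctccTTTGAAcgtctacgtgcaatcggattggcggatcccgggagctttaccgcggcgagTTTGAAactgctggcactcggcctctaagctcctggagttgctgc
Cdc20: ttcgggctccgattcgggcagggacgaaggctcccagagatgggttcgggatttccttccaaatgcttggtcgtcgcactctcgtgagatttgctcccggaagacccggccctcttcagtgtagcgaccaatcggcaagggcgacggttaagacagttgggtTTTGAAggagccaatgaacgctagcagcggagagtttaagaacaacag
Ube2c: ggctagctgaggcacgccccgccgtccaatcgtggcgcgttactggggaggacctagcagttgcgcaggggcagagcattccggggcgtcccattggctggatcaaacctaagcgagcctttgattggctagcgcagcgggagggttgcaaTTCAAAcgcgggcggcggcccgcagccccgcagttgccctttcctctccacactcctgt
Mki67: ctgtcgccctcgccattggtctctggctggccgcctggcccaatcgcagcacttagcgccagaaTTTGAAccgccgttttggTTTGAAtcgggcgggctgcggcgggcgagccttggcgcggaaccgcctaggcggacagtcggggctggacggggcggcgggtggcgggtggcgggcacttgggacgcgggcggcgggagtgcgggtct

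Among these, Mcm6 (chr1:128359676-128359885, minus strand) had 3 E2F matches, of which 2 overlap, beginning at positions -110 and -106 from the start, and the last began at -47. In Mcm5 (chr8:75109329-75109538, plus strand) a pair of overlapping E2F matches began at -153 and -149. Mcm3 (chr1:20820283-20820492, minus strand) had its 3 matches after the start, a pair from position 19 and 1 from position 39, which is outside the stretch printed, and Mcm7 (chr5:138171854-138172063, minus strand) had E2F letters on both sides of it and a CHR match at -173. Mcm2 (chr6:88898751-88898960, minus strand) had no E2F match and 1 CHR match, at -70. Cdk1 (chr10:69352883-69353092, minus strand) was the mitosis gene with E2F letters, at -131, beside 2 CHR matches at -71 and -15. In Cdc20 (chr4:118437314-118437523, minus strand) the CHR match began at -18 and in Ube2c (chr2:164769749-164769958, plus strand) at -29, and Mki67 (chr7:135716350-135716559, minus strand) had matches at -116 and -98. The letters GTAAACA, to which FoxO and other forkhead factors bind, were in Cdc45 and in a further start window of Mcm7, in 0 of 17 mitosis genes and in 4.05% of all genes. Such matches are letters in a window and were not tested as binding sites.

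**Figure D1:**
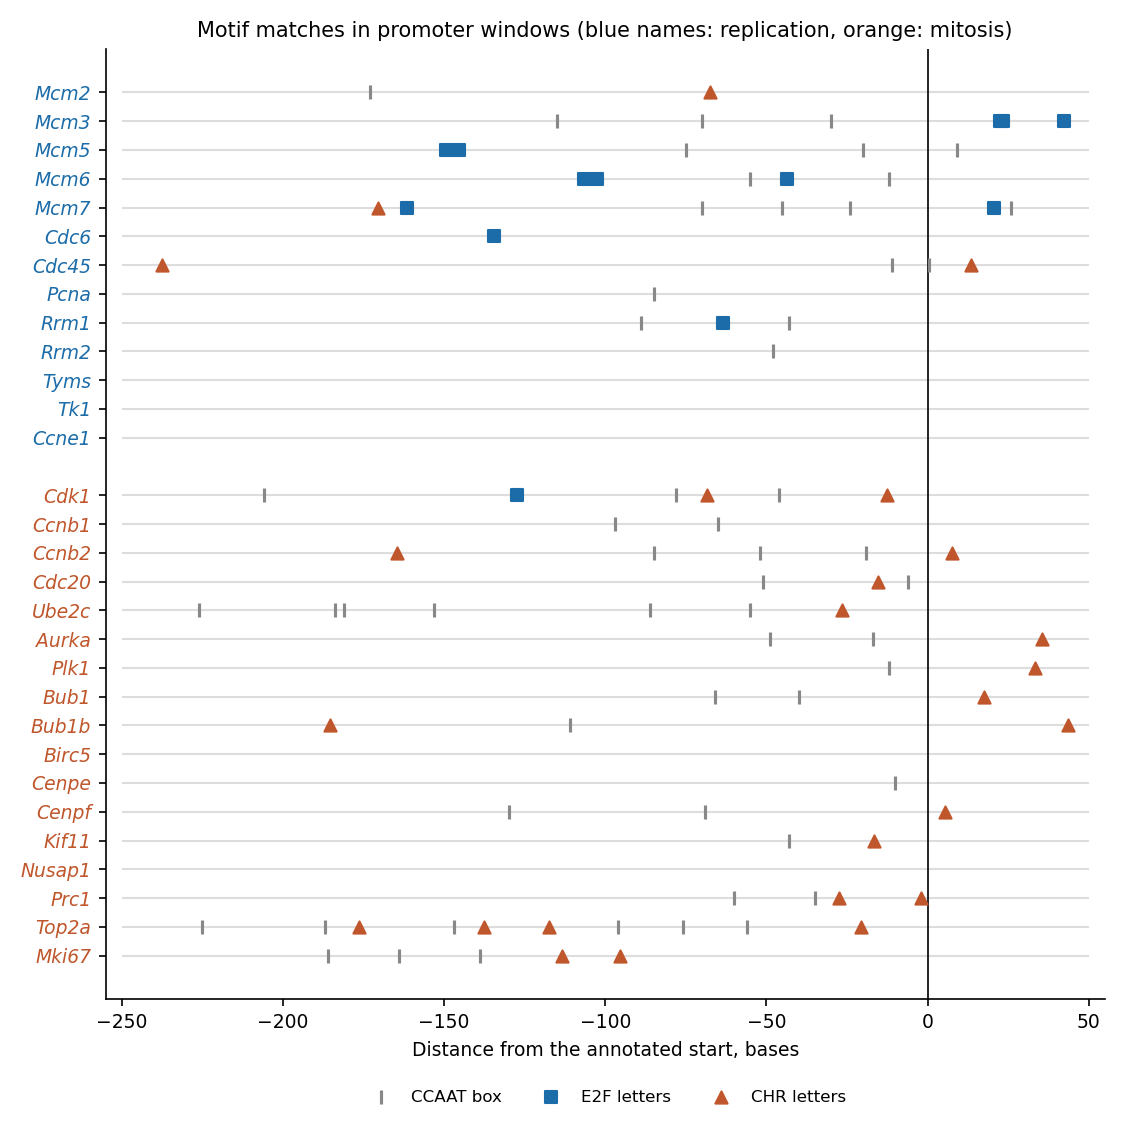
Position of motif matches (x axis: bases from the annotated start, from 250 before to 50 after) in the promoter windows of 13 replication genes (blue names) and 17 mitosis genes (orange names). Grey ticks are CCAAT boxes, blue squares E2F letters and orange triangles CHR letters; CHR letters are in 13 mitosis genes and 3 replication genes, E2F letters in 6 replication genes and 1 mitosis gene.

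The 40 genes were expressed at low to middling levels. Pcna, the sliding clamp that holds DNA polymerase on its template, led with 89.0 FPKM (WT) and 83.6 FPKM (KO), followed by Mcm6 (28.9 and 25.4 FPKM) and Hmgb2, a chromatin protein of dividing cells (27.97 and 26.4 FPKM). Most of the rest, 34 genes, had a mean between 1 and 15 FPKM. The lowest was Cenpf at 1.004 and 0.807 FPKM, and Cdc6, at 0.987 and 0.880 FPKM, was the 1 gene of the 40 that was not measured. The order of levels was nearly the same in both libraries, with a Spearman rho of 0.96 across the 40 genes. The plot of levels shows this order together with the small distance between the libraries for each gene.

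**Figure D2:**
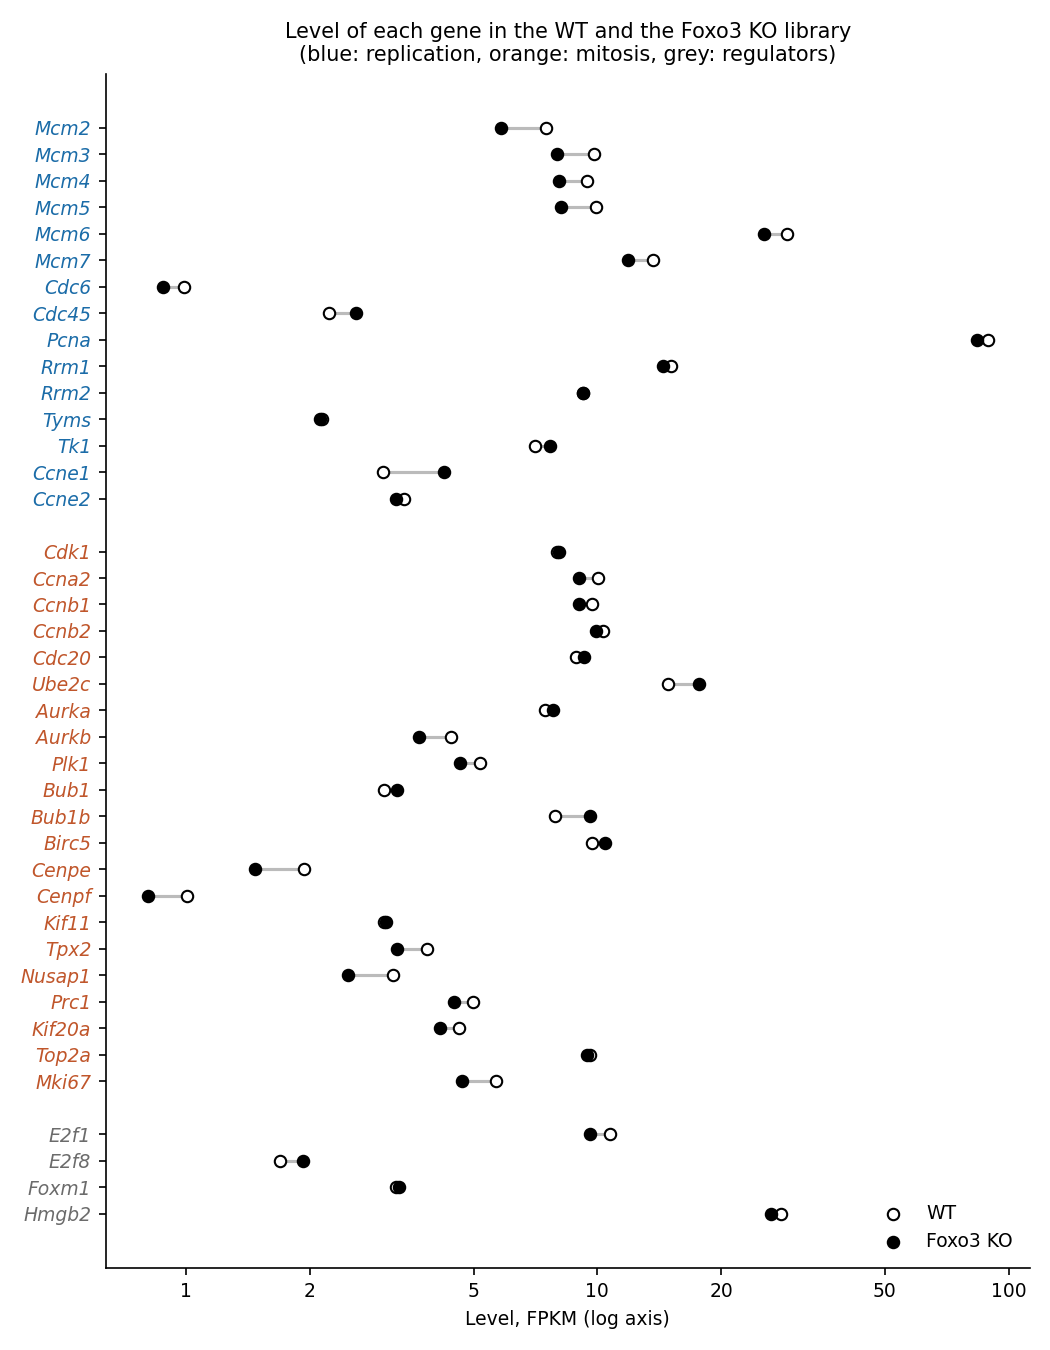
Level of each of the 40 genes (x axis: FPKM on a log axis) in the WT library (open circles) and the Foxo3 KO library (filled circles), 1 library each and no error bars. Pcna is highest at 89.0 and 83.6 FPKM, and in all of Mcm2 to Mcm7 the filled circle lies left of the open one.

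Across the 39 measured members the KO library was lower in 25, against 42.4% of all measured genes (57.6% were higher) and 47.1% of genes with a mean of 1 to 15 FPKM. The median log2 ratio was -0.078, beside a median of 0.025 for all measured genes. No member differed by 2-fold, as 0.32% of measured genes did in either direction. A difference of at least 1.1-fold in FPKM + 1 was used as a smaller size: 14 of the 39 were lower by that much, against 14.8% of all measured genes and 17.7% of those with a mean of 1 to 15 FPKM. At the same size 4 were higher, against 19.2% and 19.7%. Beyond 2 counting SD, 14 of the 40 were lower and 3 higher, against 18.5% and 27.1% of measured genes. The estimated counting SD of a member's log2 ratio ran from 0.033 to 0.12, with a median of 0.072, on 115 to 3399 estimated reads in the WT library.

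**Figure D3:**
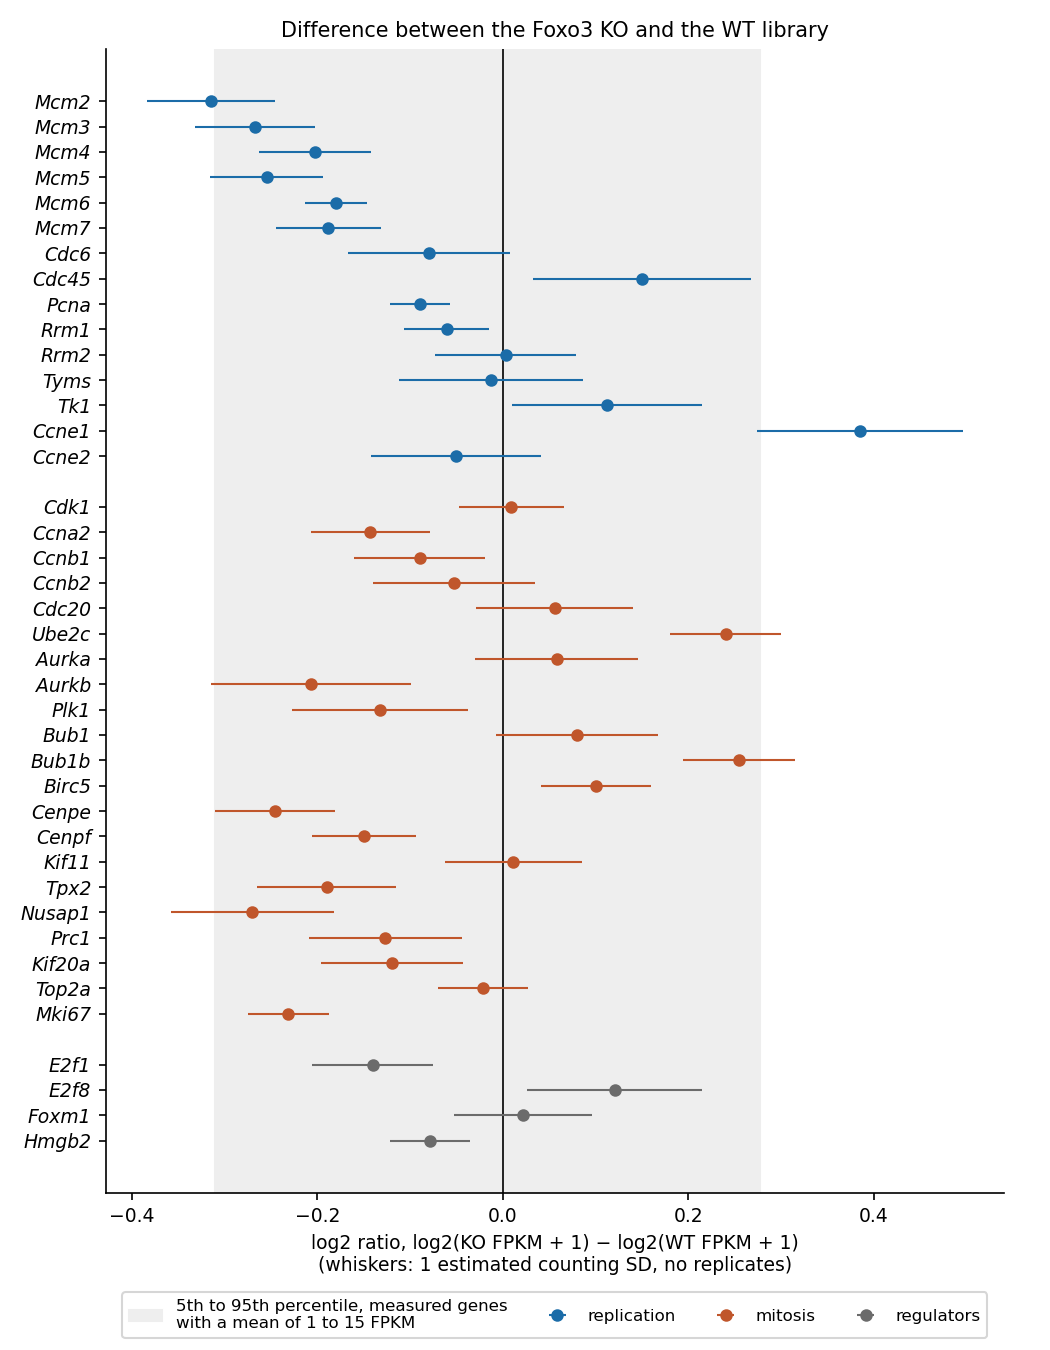
Difference between the libraries for each gene (x axis: log2 ratio of KO over WT, FPKM + 1), with whiskers of 1 estimated counting SD, since there are no replicates. Blue points are replication genes, orange mitosis genes and grey regulators, and the grey band is the 5th to 95th percentile of measured genes with a mean of 1 to 15 FPKM, from -0.31 to 0.28; Mcm2 at -0.31 lies just left of the band and Ccne1 at 0.39 right of it.

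Of the replication genes, the 6 subunits of the Mcm2-7 helicase, the ring that unwinds DNA ahead of the polymerases, were all lower in the KO library. Their summed level was 79.3 FPKM (WT) and 67.3 FPKM (KO), or 85.0% of WT. Mcm2 (chromosome 6, 88883474 to 88898780, 16 exons in its longest transcript) stood at 7.48 FPKM (WT) and 5.82 FPKM (KO), 77.8% of WT, with a log2 ratio of -0.31 and a counting SD of 0.069. Mcm3 (chromosome 1, 20802968 to 20820312) stood at 9.82 and 7.99 FPKM, a log2 ratio of -0.27, and Mcm5 (chromosome 8, 75109569 to 75128439) at 9.95 and 8.18 FPKM, a ratio of -0.25. Of the 6 subunits, these 3 lay farthest below equality. Mcm4 (chromosome 16, 15623897 to 15637400) stood at 9.42 and 8.06 FPKM (-0.20). The most abundant subunit transcript, Mcm6 (chromosome 1, 128331590 to 128359664), stood at 28.9 and 25.4 FPKM (-0.18, with a counting SD of 0.033). Mcm7 (chromosome 5, 138164583 to 138172422), whose exons overlap those of Ap4m1 and Cops6 and the microRNA genes Mir25 and Mir93, stood at 13.7 and 11.9 FPKM (-0.19). Each of the 6 was at least 1.1-fold lower and beyond 2 counting SD, and their log2 ratios lay between percentiles 4.36 and 10.7 of all measured genes. With trends on transcript length and GC content removed, the 6 log2 ratios ran from -0.34 (Mcm2) to -0.19 (Mcm6). The other pseudocounts and both scalings could not have turned a ratio below 0 into one above it, so they are no check of the direction.

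The genes of the factors that load and start this helicase went both ways. Cdc6, which loads the ring with Cdt1, stood at 0.987 FPKM (WT) and 0.880 FPKM (KO). Cdc45, a part of the active helicase whose exons overlap those of Ufd1, stood at 2.23 and 2.58 FPKM, a log2 ratio of 0.15 with a counting SD of 0.12. The 4 GINS subunits complete the active helicase. They were picked out of the wider list after their values were seen, and went both ways: Gins1 stood at 4.10 and 2.56 FPKM (-0.52) and Gins2 at 5.90 and 5.61 FPKM, while Gins3 stood at 1.72 and 1.94 FPKM and Gins4 at 12.1 and 13.7 FPKM (0.16). Cdt1 stood at 21.5 and 24.1 FPKM (0.15) and Gmnn, the geminin that inhibits it, at 26.5 and 28.6 FPKM (0.11), also picked after their values were seen. The origin recognition complex, which marks origins for the ring, had 5 of its 6 genes measured, with log2 ratios from -0.053 in Orc3 to 0.096 in Orc2. Mcm10, which helps to activate the ring, stood at 1.61 and 1.28 FPKM (-0.20), and the genes of the activating kinase, Cdc7 and Dbf4, had log2 ratios of -0.094 and -0.032, again picked after their values were seen. Among these genes Gins1 and Mcm10 were lower and Cdc45, Cdt1 and Gins4 higher by at least 1.1-fold.

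The other replication genes lay close to equality. Pcna, on about 3399 estimated reads in the WT library, had a log2 ratio of -0.090 with a counting SD of 0.033. Annotated pseudogenes carry its name (Pcna-ps1 and Pcna-ps2), and reads of such copies may not be separable. Ribonucleotide reductase, which makes deoxynucleotides, has Rrm1 as its large subunit (15.1 FPKM (WT) and 14.4 FPKM (KO)) and Rrm2 as its S-phase subunit (9.21 and 9.23 FPKM). Thymidylate synthase, Tyms, stood at 2.14 and 2.11 FPKM, and thymidine kinase, Tk1, whose exons overlap Afmid, at 7.04 and 7.69 FPKM. The summed level of these 4 nucleotide genes was 33.5 FPKM (WT) and 33.4 FPKM (KO). Without the Mcm2-7 genes, the 8 measured replication genes were split 4 lower and 4 higher, with a median log2 ratio of -0.0048.

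The 2 cyclin E genes, whose products start S phase with Cdk2, differed from each other. Ccne1 (chromosome 7, 38097984 to 38107534) stood at 3.01 FPKM (WT) and 4.24 FPKM (KO), 140.8% of WT, while Ccne2, whose exons overlap Ints8, stood at 3.39 and 3.24 FPKM. The log2 ratio of Ccne1, 0.39 with a counting SD of 0.11, was the farthest from 0 of the 40 genes and lay at percentile 98.6 of all measured genes. It rested on about 151 (WT) and 295 (KO) estimated reads and was 0.21 with a pseudocount of 5.

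Among the mitosis genes, Cdk1, the kinase that drives entry into mitosis, was level at 7.999 FPKM (WT) and 8.06 FPKM (KO). Its cyclins were slightly lower: Ccna2, whose exons overlap Exosc9, stood at 10.1 and 9.02 FPKM (log2 ratio -0.14), Ccnb1 at 9.69 and 9.04 FPKM (-0.090) and Ccnb2 at 10.3 and 9.91 FPKM (-0.052). Of these, Ccna2 passed 1.1-fold. Of the pair of genes of the anaphase-promoting complex, which ends mitosis by marking cyclin B for destruction, 1 was higher by more than 1.1-fold. Its ubiquitin-conjugating enzyme Ube2c (chromosome 2, 164769898 to 164778822), whose exons overlap Tnnc2, stood at 14.8 and 17.7 FPKM (0.24, counting SD 0.060). Its activator Cdc20, whose exons overlap Elovl1, stood at 8.89 and 9.28 FPKM (0.056, counting SD 0.084), and its log2 ratio was -0.00080 with trends on length and GC content removed.

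Mitotic kinases and the genes around them went both ways. Bub1b (chromosome 2, 118598211 to 118641591), which encodes the spindle checkpoint protein BubR1, stood at 7.88 FPKM (WT) and 9.59 FPKM (KO), a log2 ratio of 0.25 with a counting SD of 0.060. Its partner Bub1 stood at 3.02 and 3.25 FPKM (0.080). Aurora kinase B and survivin are subunits of 1 complex, the chromosomal passenger complex. Its kinase gene Aurkb stood at 4.40 and 3.68 FPKM (-0.21) and its survivin gene Birc5 at 9.70 and 10.5 FPKM (0.10), so these subunits differed in opposite directions. Aurora kinase A, Aurka, which acts at spindle poles, stood at 7.45 and 7.80 FPKM (0.058), and the Polo kinase gene Plk1 at 5.18 and 4.64 FPKM (-0.13). Of these 6 genes, Bub1b alone lay beyond 2 counting SD.

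The 5 genes grouped here as kinetochore and spindle genes were mostly lower. Their summed level was 13.0 FPKM (WT) and 11.1 FPKM (KO), 85.1% of WT, and 4 of 5 were lower by at least 1.1-fold, against 14.8% of all measured genes and 17.7% of those with a mean of 1 to 15 FPKM. With trends on length and GC content removed the number was 3 of 5. These numbers depend on the grouping, since genes described above with the mitotic kinases also act at the spindle. Of those, Bub1b, Bub1, Aurka and Birc5 were higher in the KO library and Aurkb and Plk1 lower. Nusap1 (chromosome 2, 119618298 to 119651244), which bundles spindle microtubules and overlaps Oip5, stood at 3.19 and 2.47 FPKM (-0.27). Cenpe (chromosome 3, 135212537 to 135273611), the kinesin that carries chromosomes to the spindle equator, stood at 1.93 and 1.47 FPKM (-0.25). Tpx2, which activates Aurora A on the spindle, stood at 3.85 and 3.25 FPKM (-0.19), and Cenpf, a large kinetochore protein with the longest transcript of the 40 (11130 bases), had a log2 ratio of -0.15, or -0.088 with these trends removed. Kif11, the kinesin that pushes spindle poles apart, was level at 3.04 and 3.07 FPKM. The cytokinesis genes Prc1 (4.98 and 4.48 FPKM, with exons over Rccd1) and Kif20a (4.602 and 4.16 FPKM, with exons over Cdc23) had log2 ratios of -0.13 and -0.12. Mki67, which encodes the proliferation antigen Ki-67 and coats mitotic chromosomes, stood at 5.68 and 4.69 FPKM (-0.23, counting SD 0.044). Top2a, the topoisomerase that untangles chromosomes, stood at 9.60 and 9.45 FPKM (-0.021), so these common markers of dividing cells differed in size.

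The regulators were split. E2f1, an activator of replication genes, stood at 10.7 FPKM (WT) and 9.62 FPKM (KO) (-0.14, counting SD 0.065). E2f8, an E2F repressor, stood at 1.69 and 1.92 FPKM (0.12), on about 157 estimated reads in the WT library. Foxm1, the forkhead activator of mitotic genes, was level at 3.24 and 3.30 FPKM, and Hmgb2 had a log2 ratio of -0.078. Of these regulators E2f1 alone passed 1.1-fold, and only just: its log2 ratio was -0.1404, where 1.1-fold is 0.1375. With a pseudocount of 5 it was -0.10. Whether the levels of the regulators had a part in those of the other genes was not tested.

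Set against each other, the 2 groups did not separate. Of 14 measured replication genes 10 were lower, and their median was -0.075. Of 21 mitosis genes 13 were lower, and their median was -0.090. Of all measured genes 42.4% were lower, and of those with a mean of 1 to 15 FPKM 47.1%. The difference of the medians, 0.014, was below 0 in 7 of 14 settings. Summed levels follow the most abundant genes. Replication genes came to 211.3 FPKM (WT) and 195.3 FPKM (KO), 92.4% of WT, and mitosis genes to 137.3 and 136.2 FPKM, 99.3% of WT. Pcna made up 89.0 and 83.6 FPKM of the replication sums and the Mcm2-7 genes 79.3 and 67.3 FPKM. Without the Mcm2-7 genes the replication sum was 96.9% of WT, so these sums do not set the 2 groups apart. By level, the groups broke up as follows. At 5 FPKM or more in 1 library, 8 of 10 replication genes were lower (median -0.18), 6 of them the Mcm2-7 genes, while mitosis genes were split 6 to 6 (median -0.0058). Under 5 FPKM, 7 of 9 mitosis genes were lower (median -0.15), and 2 of 4 measured replication genes (median 0.069). The share of all measured genes lower above and below 5 FPKM was not computed, so these counts by level describe the members only. Across the 21 mitosis genes the log2 ratio went with the mean level at a Pearson r of 0.60 and a Spearman rho of 0.54, and across the 15 replication genes at -0.33 and -0.35. These genes share the same 2 libraries, low genes carry more counting error, and the WT library is the shallower one by the estimate. Log10 transcript length went with the log2 ratio at a Pearson r of -0.34 across the 40 genes and -0.14 across all measured genes. With trends on length and GC content removed 28 of the 39 were lower. Removing the trends moves the ratios of all measured genes, and their share below 0 in this setting was not computed, so the higher number is no result about the members. With them removed, Cdc45 (0.11) and Cenpf no longer passed 1.1-fold, Pcna (-0.14), Plk1 (-0.18) and Prc1 (-0.15) did, and Rrm2 (-0.030), Cdk1 (-0.00023) and Cdc20 lay below 0.

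**Figure D4:**
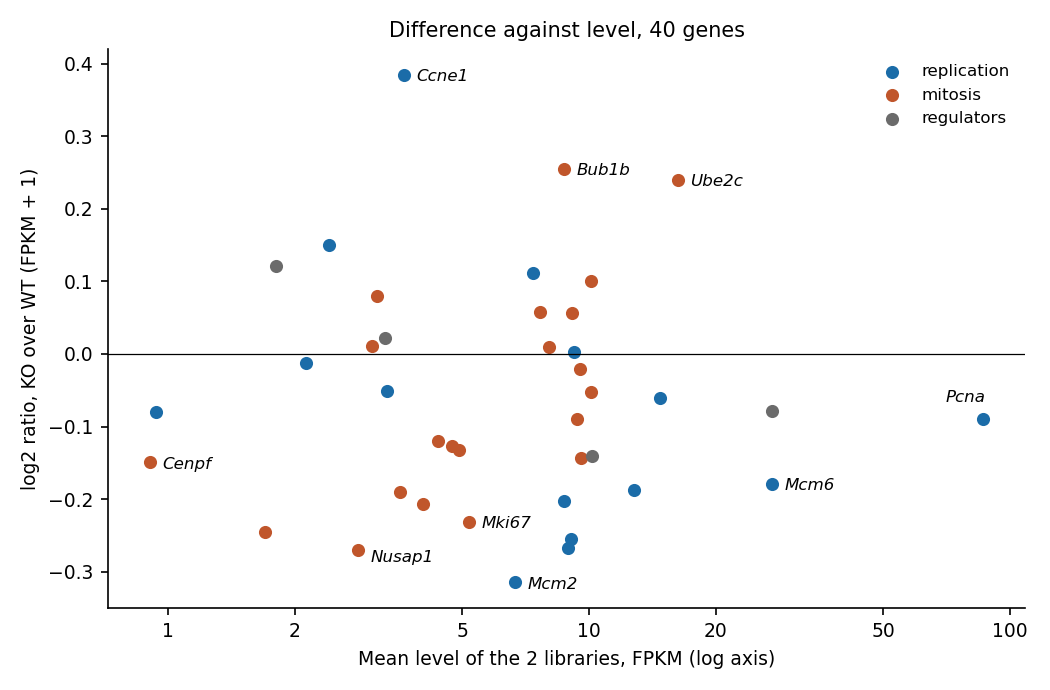
Log2 ratio of KO over WT (y axis, FPKM + 1) against the mean level of both libraries (x axis: FPKM on a log axis) for 15 replication genes (blue), 21 mitosis genes (orange) and 4 regulators (grey). Mitosis genes under 5 FPKM lie mostly below 0 and those above it on both sides, while the Mcm genes lie below 0 from Mcm2 at -0.31 to Mcm6 at -0.18.

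Grouped by the promoter letters shown above, all 5 measured replication genes with E2F letters (Mcm3, Mcm5, Mcm6, Mcm7 and Rrm1) were lower, with log2 ratios from -0.27 to -0.061, against 42.4% of all measured genes, and Cdc6, which was not measured, had a ratio of -0.080. Of the 7 replication genes with a window and no such letters 3 were lower (Mcm2, Pcna and Tyms), from -0.31 in Mcm2 to 0.39 in Ccne1. Since 4 of the 5 are Mcm genes, the letters and the helicase cannot be told apart here. Mitosis genes with CHR letters were lower in 6 of 13 cases (median 0.0093), from -0.23 in Mki67 to 0.25 in Bub1b. That is near the 42.4% of all measured genes that were lower. Of the 4 with a window and no CHR letters Nusap1, Cenpe and Ccnb1 were lower and Birc5 higher.

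Wider lists of the same pathways gave another view of the 2 groups. Of 45 measured replication genes outside the 40, 22 were lower and 23 higher, with a median of 0.0017, against 42.4% and 57.6% of all measured genes. By at least 1.1-fold 10 were lower and 7 higher (22.2% and 15.6%, against 14.8% and 19.2% of all measured genes). The lowest at 5 FPKM or more were Uhrf1, which maintains DNA methylation behind the fork (6.81 FPKM (WT) and 4.83 FPKM (KO), -0.42), Dck, deoxycytidine kinase (16.8 and 13.5 FPKM, -0.29), and Rpa2, of the single-strand binding protein (5.53 and 4.70 FPKM, -0.20). The highest were Rpa3, of the same protein (13.5 and 16.2 FPKM, 0.25), Dut, which removes dUTP (6.22 and 7.21 FPKM, 0.19), and Fen1, the flap nuclease of lagging strands (12.1 and 13.8 FPKM, 0.18). Of 8 measured DNA polymerase and primase genes 3 were lower (Pola1, Pola2 and Pold3, down to -0.15 in Pola1). Of 5 clamp loader genes 2 were lower (Rfc1 and Rfc2, down to -0.093 in Rfc1). These shares, 37.5% and 40%, are near the 42.4% of all measured genes, and both groups were drawn up after their values were seen. Under either scaling the median of this wider replication list was just below 0.

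Of 58 measured mitosis genes outside the 40, 39 were lower and 19 higher, with a median of -0.057, and 20 were lower and 5 higher by at least 1.1-fold (34.5% and 8.62%). Of all measured genes 42.4% were lower, 14.8% lower by that much and 19.2% higher by that much. The lowest at 5 FPKM or more were Stmn1, stathmin, which destabilises microtubules (36.1 FPKM (WT) and 29.2 FPKM (KO), -0.30), the condensin subunit Ncapg2 (14.98 and 12.6 FPKM, -0.23) and Incenp, the scaffold of the passenger complex (13.9 and 11.7 FPKM, -0.23). The highest were separase, Espl1 (10.6 and 12.1 FPKM, 0.17), the checkpoint gene Mad2l1 (10.3 and 11.5 FPKM, 0.15) and Cks2, a Cdk1 subunit (17.5 and 19.3 FPKM, 0.13). Under 5 FPKM, kinetochore genes past 1.1-fold went both ways: Cenpp (0.38), Cenpn (0.32) and Dsn1 (0.21) were higher, and Nuf2 (-0.28), Cenpk (-0.23) and Ndc80 (-0.21) were lower, all named after their values were seen. The contrast in E2F and CHR letters was seen in the wider lists too: CHR letters were in 37 of 53 mitosis and 7 of 38 replication genes of the wider lists, and E2F letters in 8 of 53 and 18 of 38. The forkhead letters GTAAACA were in 5 of 53 mitosis and 0 of 38 replication genes of these lists, against 4.05% of all genes. That is the reverse of their order among the 40 genes.

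**Figure D5:**
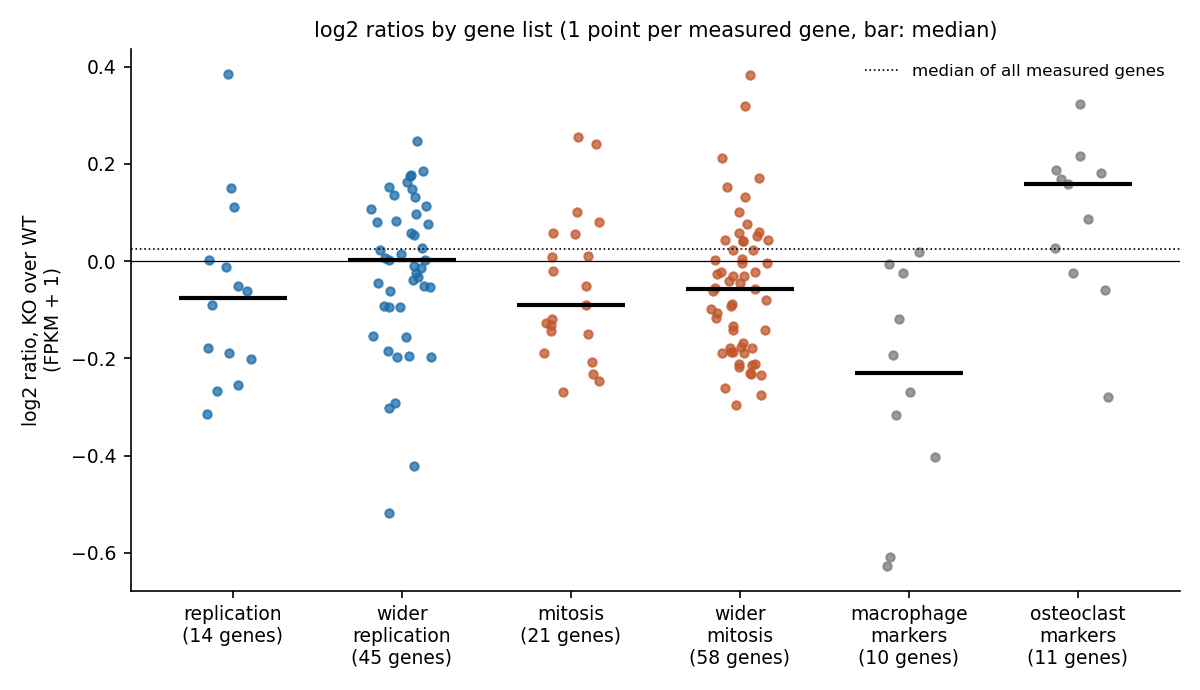
Log2 ratios of KO over WT (y axis, FPKM + 1) by gene list, 1 point per measured gene, with a bar at the median and a dotted line at the median of all measured genes, 0.025. The medians are -0.075 for replication and -0.090 for mitosis genes, 0.0017 and -0.057 for the wider lists, and -0.23 for macrophage and 0.16 for osteoclast markers.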

How the data were processed

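The authors deposited 1 table per library with a gene symbol and a value. Neither header nor labels name the unit, and the values were read as FPKM: they are not whole numbers, and low values scale inversely with transcript length. TopHat, edgeR and mm10 are named in the submitters' processing notes with no version or role; how reads were counted and scaled is not given in the sources used here. A constant of 0.000001 was subtracted from each deposited FPKM value. Columns then summed to 530701 (WT) and 540601 (KO).

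With 1 library per group no test was run. Members and lists were chosen with earlier results of these data known, and sizes of 1.1-fold and 2-fold took the place of a test. All 40 members, Foxo3 and the 3 highest and 3 lowest genes at 5 FPKM or more of each wider list were named, beside the defining cell type markers; genes so marked were chosen after their values were seen. What 1 read is worth was the most frequent product of FPKM and length over 352 (WT) and 408 (KO) genes under 0.1 FPKM with a single annotated transcript. Positions, lengths and exon overlaps, on either strand, come from GENCODE M21 on mm10; 15876 of 16614 symbols matched directly and 640 through a synonym. Promoters are RefSeq windows on GRCm38.p6. Alternatives were trimmed-mean scaling (30% and 5% trimmed), centring, pseudocounts of 0.25 and 5, other minimums, folds and memberships, and lowess trends (span 0.3). The list median, the 1.1-fold rule and the trimmed-mean factor were tested on simulated data, with shifts larger than those of most members. The depth estimate, counting errors, trends and motif search were not tested in this way. Python 3.11.15, numpy 2.4.6, pandas 2.3.3, statsmodels 0.14.6 and matplotlib 3.10.9 were used.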

Additional observations from a re-analysis of the deposited data

How the results depend on the processing

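Of 118 recomputed summary values 78 held, 27 moved (a median by over 1 standard error across the genes of its list, a count by over 1.5 times) and 13 changed sign. Of 160 recomputed log2 ratios of members, 159 changed by less than a bound of 0.11 to 0.21, depending on the gene, and that of Ccne1 changed by more. This bound was wider than many of the ratios themselves, so staying within it says little. With a pseudocount of 5, for instance, Cenpf went from -0.15 to -0.048 and stayed within its bound. Under a scaling, 7 of these ratios, of 4 genes close to 0 (Rrm2, Cdk1, Kif11 and Foxm1), changed sign. With length and GC trends removed Rrm2, Cdk1 and Cdc20 changed sign. The median over the members stayed below 0 in all 14 settings, though the scalings and pseudocounts among them could not have raised it above 0. With a pseudocount of 5 the medians were -0.048 for the members and -0.048 for mitosis genes, with 7 members at least 1.1-fold lower. A minimum of 5 FPKM gave -0.18 for replication and -0.0058 for mitosis genes, 6 mitosis genes lower, and 9 members lower and 2 higher by 1.1-fold. The mean of mitosis genes was -0.056. Removing length and GC trends gave -0.10 for the members. At the smaller fold 8 members were higher, and at 1.2-fold 3 were lower and 1 higher. The replication median minus the mitosis median was -0.18 with a minimum of 5 FPKM, -0.019 with a pseudocount of 5, -0.00094 with trends removed, -0.014 for means, -0.019 without the member farthest from 0 and -0.010 with the other membership. Further settings were chosen after seeing the data. Without members whose exons overlap a coding gene, medians were -0.13 for replication and -0.052 for mitosis genes, a difference of -0.082. Without Mcm2 to Mcm7, they were -0.0048 for replication genes and -0.051 for the members, and the difference was 0.085. For the wider replication list the median was -0.018 with trimmed-mean scaling, -0.024 when centred, -0.011 with no minimum, -0.023 with trends removed and -0.021 as a mean. The wider mitosis list gave -0.082 when centred, -0.032 with a minimum of 5 FPKM, -0.029 with a pseudocount of 5, -0.081 with trends removed and -0.078 with no pseudocount. The wider regulators gave -0.060 when centred and 0.0044 with a minimum of 5 FPKM. The log2 ratio of Foxo3 was -4.23 with no pseudocount, -3.72 with 0.25 and -1.46 with 5. Changes with the fold, the minimum, the pseudocount and both scalings follow from their construction. Centring lowered every log2 ratio by 0.025, and trimmed-mean scaling divided every KO value by 1.015. For the other settings the cause was not tested. No paired analysis was possible because there is 1 library per genotype, and no library could be left out. Depth limits genes of few reads, such as Ccne1, Cdc45 and E2f8, more than Pcna or Mcm6.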

Other observations

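Regulators of the same programme outside the 40 genes lay about as near to equality as the 4 regulators among the 40, whose median log2 ratio was -0.028. Of 16 measured E2F, DP, MuvB and retinoblastoma family genes, 9 were lower and 7 higher in the KO library, against 42.4% and 57.6% of all measured genes. Their median log2 ratio was -0.035. At least 1.1-fold apart were Rbl1, the p107 pocket protein (-0.15), and Tfdp2, an E2F partner (0.21). Both were under 5 FPKM and named after their values were seen. The lowest at 5 FPKM or more were Rbl2, the p130 pocket protein of resting cells (12.0 FPKM (WT) and 10.9 FPKM (KO), -0.13), Tfdp1, the dimer partner of E2F factors (26.1 and 24.1 FPKM, -0.11), and Rb1, the retinoblastoma gene (10.5 and 9.77 FPKM, -0.093). The highest were E2f6 (11.4 and 12.2 FPKM, 0.088) and the MuvB gene Lin37 (13.3 and 14.1 FPKM, 0.081), with E2f4 at 29.0 and 29.5 FPKM.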
